A study of Mus musculus with 43 samples.

Results

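The livers described here carried a human SERPINA1 Z transgene (PiZ) and lacked the hepatic insulin receptor (LIRKO) and FOXO1 (F1KO), and they were set against wild-type (WT) livers to see how far from normal they were. The 8 libraries, of 43 in the whole series, are those labelled PiZ x LIRKO x F1KO (Z), mice 169, 170, 201, 206 and 207, here called the triple mutant, and those labelled WT, mice 1564, 1586 and 1601. All mice of both groups were males of 4 to 5 months on a C57BL6/J x FVBN background, and liver RNA of each was sequenced. Neither the Cre driver of the deletions nor the promoter of the transgene is stated in the labels. The source name differed between the groups: it was F1IRZZ for every triple mutant mouse and IRZZ for every WT mouse, so genotype and source name cannot be told apart in a direct comparison. The other 4 groups of the same table are used for reference: PiZ (Z) with 5 mice, PiZ x LIRKO with 4 and LIRKO with 4, all with source name IRZZ, and PiZ (Z*) with 5 mice and source name F1IRZZ. What the asterisk marks is not given in the labels. Of 14622 genes in the table, the 13596 with at least 0 log2 CPM (the log2 of library-size-scaled read counts) in at least 3 of its 26 libraries were tested.

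Insulin binds its receptor on hepatocytes and, through the kinase AKT, keeps the transcription factor FOXO1 out of the nucleus. Without the receptor FOXO1 stays nuclear, where it is known to raise genes of glucose output such as G6pc and Pck1 and the growth factor binding protein gene Igfbp1. The Z variant of alpha-1 antitrypsin, the product of SERPINA1, folds poorly and collects in the endoplasmic reticulum (ER) of hepatocytes.

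Stretches before the starts of Igfbp1 and G6pc are shown because these are textbook FOXO1 targets whose levels are followed below. They are the 250 bases upstream of each RefSeq start on GRCm38.p6, both on the plus strand: Igfbp1 at chr11:7197537-7197786 and G6pc at chr11:101367466-101367715. Capitals mark CAAAACA or its reverse complement TGTTTTG, the core of the insulin response element. GTAAACA and its reverse complement TGTTTAC, the FOXO consensus core, were also searched and have no match in these letters.
Igfbp1: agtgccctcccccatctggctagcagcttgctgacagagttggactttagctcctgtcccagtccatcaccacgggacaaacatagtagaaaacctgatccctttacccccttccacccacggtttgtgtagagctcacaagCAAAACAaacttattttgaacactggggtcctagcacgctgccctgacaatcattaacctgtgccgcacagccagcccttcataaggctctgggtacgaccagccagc
G6pc: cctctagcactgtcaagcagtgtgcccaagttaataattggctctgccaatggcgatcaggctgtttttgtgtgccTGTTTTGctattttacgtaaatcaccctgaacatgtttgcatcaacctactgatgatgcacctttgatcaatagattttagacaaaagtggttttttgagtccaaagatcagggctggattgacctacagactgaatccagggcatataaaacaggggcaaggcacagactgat
The match begins 108 bases before the start in Igfbp1 and 174 bases before it in G6pc. Among the 27025 genes of the RefSeq promoter table, 6.38% held CAAAACA and 3.54% held GTAAACA on either strand of the same 250 bases. These matches describe the letters and do not show binding.

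The altered genes themselves followed the labels. The human transgene had 323, 412 and 381 reads in WT mice 1564, 1586 and 1601 and between 70078 and 113545 in the 5 triple mutant mice. Insr, the insulin receptor gene (chr8:3122061-3279617, GRCm38), stood at 7.08, 7.04 and 7.24 log2 CPM in the WT mice in that order, and at 5.44, 5.12, 5.08, 5.17 and 5.18 in triple mutant mice 169, 170, 201, 206 and 207. Every triple mutant value lay below every WT value, and Insr fell by 1.92 ± 0.11 log2 units (SE; 3.79-fold; limma, Benjamini-Hochberg adjusted p = 1.2e-11). Foxo1 (chr3:52268336-52353221) stood at 5.12, 5.00 and 5.17 in WT and at 2.98, 2.73, 2.78, 2.70 and 2.61 in the triple mutant. The groups did not overlap, and Foxo1 fell by 2.33 ± 0.15 (5.05-fold; adjusted p = 7.2e-11). Counts were per gene, so reads from exons outside a deleted segment and from cells other than hepatocytes are included. In bulk tissue, fewer cells of a type and less RNA per cell cannot be told apart.

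Some libraries stood apart in ways that touch the results. Recovered library totals were 16.5 to 22.2 M reads in WT and 16.0 to 21.5 M reads in the triple mutant, so depth was alike. The authors' scaling differed between the groups, with an effective library size of 0.908 to 0.971 times the reads in WT and 1.03 to 1.14 times in the triple mutant. Markers of exocrine pancreas varied from mouse to mouse: Prss2 was above 0 log2 CPM in WT mice 1586 and 1601 and in triple mutant mice 206 and 207, and the summed level of the 13 pancreatic markers ran from 4.79 to 10.39 log2 CPM in WT and from 3.58 to 10.81 in the triple mutant. A clock value, the mean of Dbp, Tef, Per3, Nr1d2 and Hlf minus the mean of Arntl, Npas2, Clock, Cry1 and Nfil3, was -0.73 to 1.48 in WT and 2.23 to 3.80 in the triple mutant, with no overlap. The WT mice were also sequenced for a second table. In it, WT mouse 1564 had 1.95 log2 CPM of the leptin receptor gene Lepr where it has 5.45 here and 5.11 of Igfbp1 where it has 7.94 here. The part of pancreatic RNA, clock phase or WT mouse 1564 in the results below was not tested beyond the values given.

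**Figure D1:**
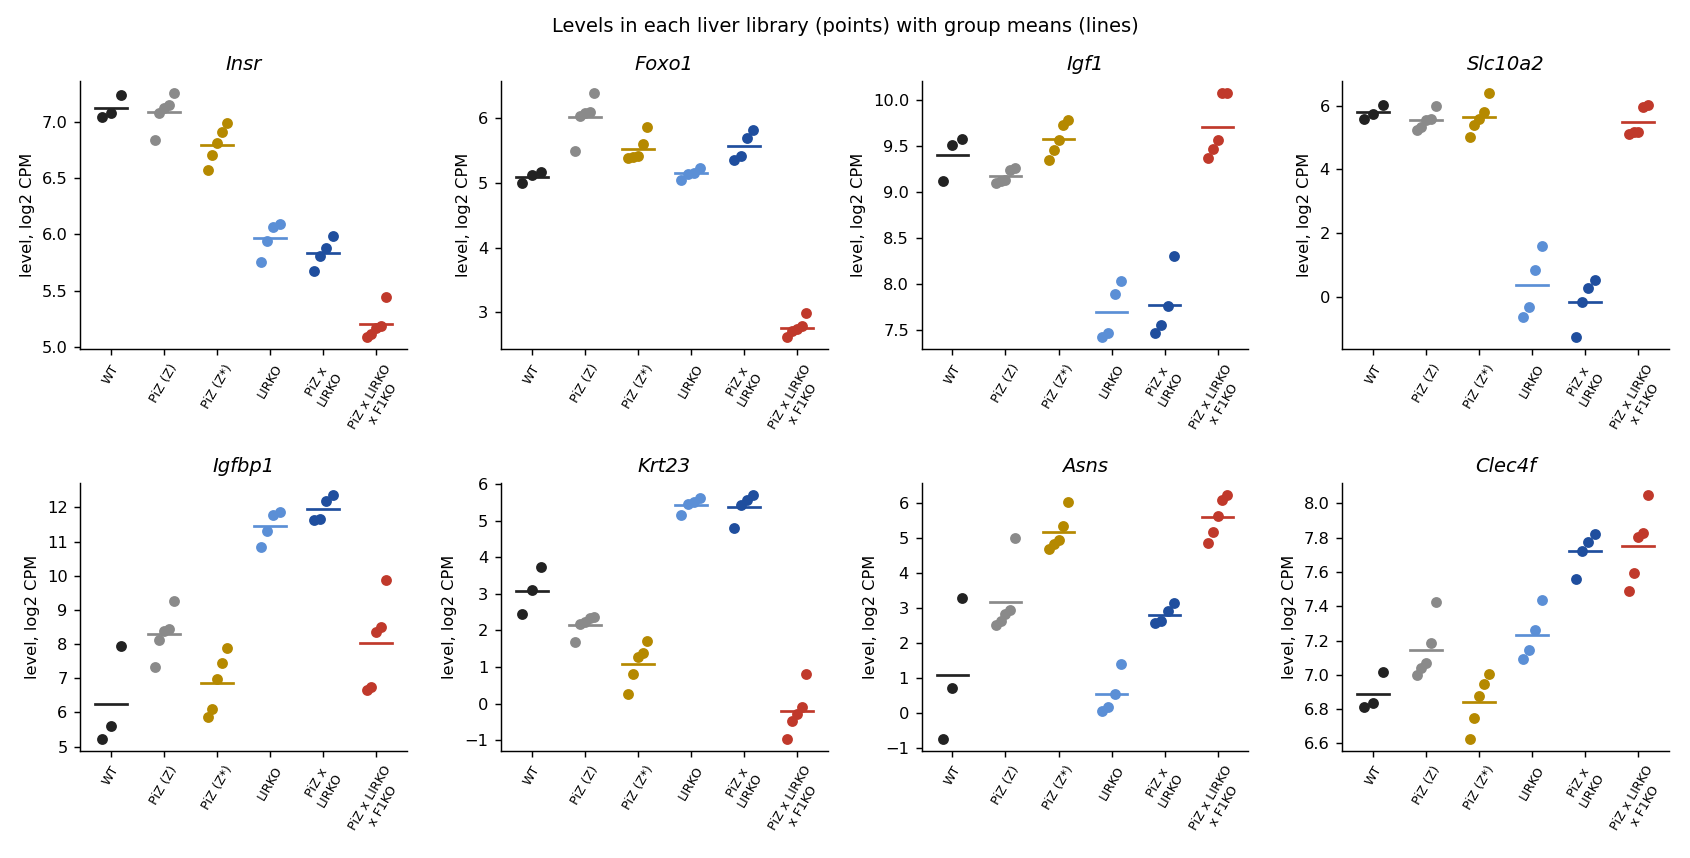
Level of 8 genes in log2 CPM (y axes, each with its own range) in each of the 26 liver libraries (points) of 6 groups (x axis), with group means as lines. Igf1 and Slc10a2 of the triple mutant lie closer to WT than to either LIRKO group, Krt23 lies below WT, and Asns and Clec4f lie above it.

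Measured over all tested genes, the triple mutant livers lay farther from WT livers than WT livers did from each other. Their root mean square difference from a WT library had a median of 0.944 log2 units over the 15 pairs (range 0.813 to 1.06). WT livers differed among themselves by 0.542 to 0.721. The same median distance was 0.776 for PiZ (Z), 0.902 for PiZ (Z*), 0.914 for LIRKO and 0.978 for PiZ x LIRKO, and the range of each of these 4 groups overlapped that of the triple mutant. By the median absolute difference, which large changes move less, the triple mutant stood at 0.324, between PiZ (Z*) at 0.304 and LIRKO at 0.341, with PiZ x LIRKO at 0.398 and WT pairs at 0.215. The 5 triple mutant livers also differed among themselves. Mice 169 and 170 were the closest pair at 0.436, and mice 169 and 207 the farthest apart at 0.842, which is more than any WT pair. Mice 169 and 170 lay nearest to each WT mouse.

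**Figure D2:**
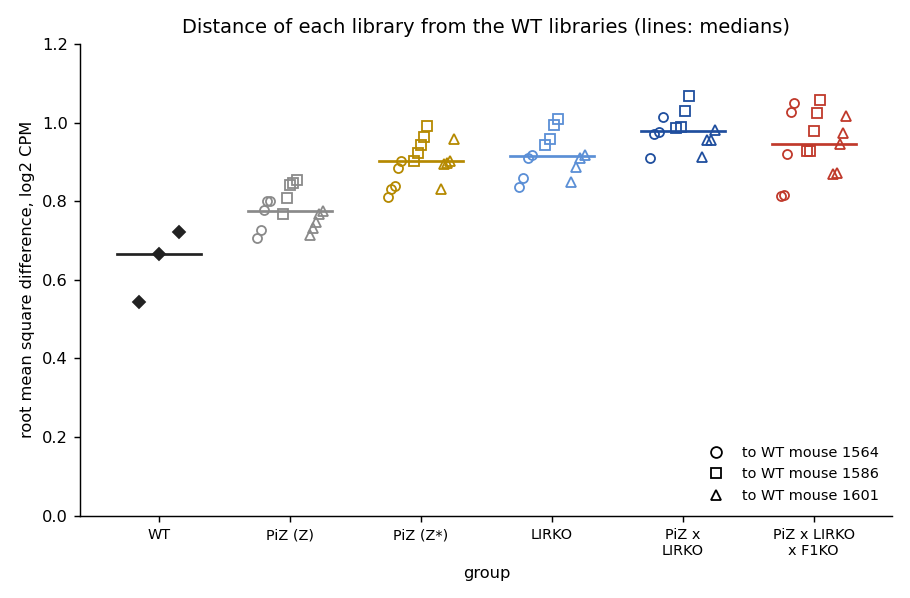
Root mean square difference in log2 CPM over 13596 genes (y axis) between each library of a group (x axis) and each WT library, with a symbol per WT mouse, filled diamonds for pairs of WT mice, and lines at the medians. Triple mutant livers lie between 0.813 and 1.06 from WT, overlapping the range of every mutant group.

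Gene by gene, 3140 of 13596 genes passed against WT, which is 23.1% of those tested. Of these, 1677 were higher (12.3%) and 1463 lower (10.8%) in the triple mutant, and the median over all genes was -0.02 log2 units. A difference of at least 1 log2 unit was passed by 766 higher and 394 lower genes, and one of at least 3 by 78 and 47. For 9624 genes, 70.8%, the 95% confidence interval of the difference lay wholly within 1 log2 unit of 0, here called near WT; 1219 of them had passed the test with a small difference. Another 2051 genes neither passed nor were near WT. The 2 groups' values did not overlap at all for 3601 genes (26.5%). With values scaled to total reads instead, the median over all genes rose to 0.17 and the share of calls that were higher went from 53.4% to 83.2%, so the balance of higher and lower calls depends on the scaling.

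With the source name as a term, estimated from PiZ (Z*) against PiZ (Z), 2298 genes passed (16.9%), 1634 of them among the 3140 and in the same direction. This fit takes PiZ (Z) and PiZ (Z*) as the same genotype, which the labels do not state. Any difference that the asterisk marks is counted as source name, here and wherever this term is used below. Against the same 3 WT mice, 4586 genes passed in PiZ x LIRKO (33.7%), 3229 in LIRKO (23.7%), 2181 in PiZ (Z*) (16%) and 1418 in PiZ (Z) (10.4%). Higher than WT were 16.9% of genes in PiZ x LIRKO, 8.58% in PiZ (Z*) and 5.89% in PiZ (Z), and lower were 16.9%, 7.47% and 4.54%. These comparisons share their WT mice and are given side by side only. Without WT mouse 1586 the triple mutant count was 2038 in place of 3140, without triple mutant mice 206 and 207 it was 1715, and with the clock value as a covariate it was 1157.

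Most genes that depend on the insulin receptor in other mice did not pass against WT in the triple mutant, though they passed more often than genes at large. Their median differences from WT were small beside those of PiZ x LIRKO and of LIRKO. The genes were taken as those at least 1 log2 unit apart, with an adjusted p under 0.05, in PiZ x LIRKO against PiZ (Z). The same was asked again in a second table of mice with 2 transgene copies. No mouse of the main comparison was in either contrast. The triple mutant and WT libraries were in the first fit, however, and the same WT mice were in the second. They thus helped to set the variances behind the adjusted p, and the choice was not wholly independent of them. Of 177 genes higher without the receptor, 33 were still higher in the triple mutant than in WT (18.6%), 123 did not pass and 21 were lower than WT. Their median difference from WT was 0.15 in the triple mutant, 1.89 in PiZ x LIRKO and 1.99 in LIRKO. Of 229 genes lower without the receptor, 54 were still lower (23.6%), 135 did not pass and 40 were higher than WT. The median of the 229 was -0.14, against -1.58 in PiZ x LIRKO and -1.62 in LIRKO. The shares still higher and still lower stand beside 12.3% higher and 10.8% lower among all genes, so both were above the background. The 21 of 177 lower and the 40 of 229 higher stand beside 10.8% lower and 12.3% higher. In either direction 148 of the 406 genes passed, beside 23.2% of the 12807 genes tested in both tables. Near WT by the interval were 41 of the 177 (23.2%) and 66 of the 229 (28.8%), against 73.2% of the 12807 genes tested in both tables, so most of those that did not pass are not shown to be close to WT. A direct comparison of triple mutant with PiZ x LIRKO had 129 of the 177 lower and none higher, and 176 of the 229 higher and 1 lower, beside 11.1% lower and 11.5% higher among all genes. PiZ x LIRKO livers helped to choose the lists, which by itself makes their differences large. These direct counts and the PiZ x LIRKO medians are therefore a description. LIRKO mice were in neither contrast that chose the lists, but were in both fits.

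**Figure D3:**
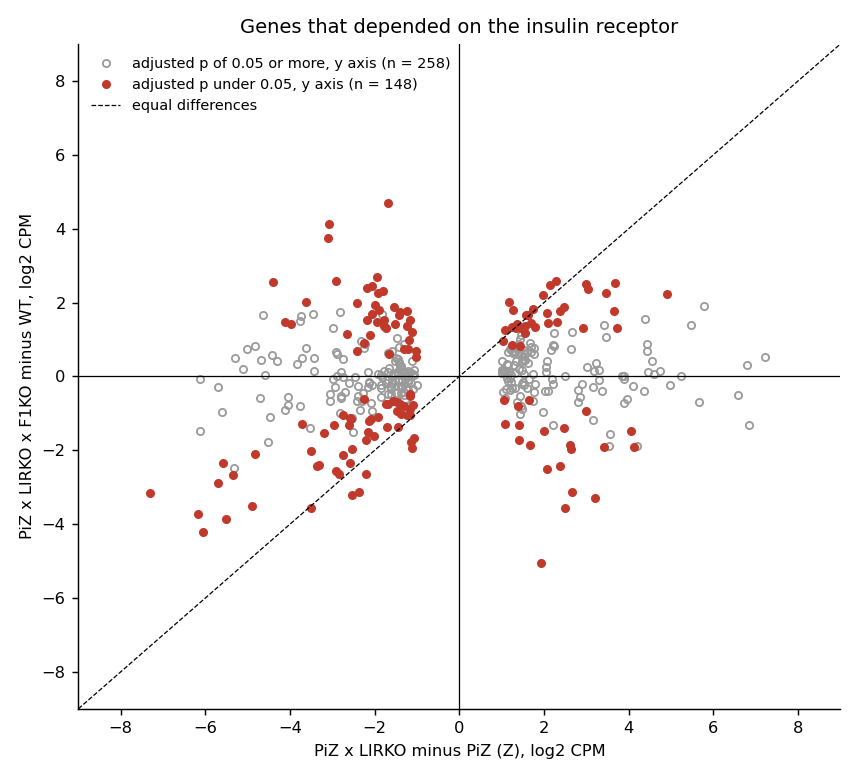
Difference of PiZ x LIRKO from PiZ (Z) (x axis) and of the triple mutant from WT (y axis), both in log2 CPM, for the 406 genes that depended on the insulin receptor. Filled points passed on the y axis (148 genes). Most genes lie nearer to the horizontal line at 0 than to the dashed line of equal differences. The x axis contrast helped to choose these genes, which by itself makes the x values large. Their position between the lines is therefore a description.

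Several genes of insulin action on glucose and growth stood far nearer to WT than in PiZ x LIRKO. Igf1, the liver's main circulating growth factor, had 9.57, 9.51 and 9.11 log2 CPM in WT and 10.07, 10.07, 9.46, 9.37 and 9.56 in the triple mutant, with overlapping groups and a difference of 0.31 (95% interval -0.08 to 0.69). Its PiZ x LIRKO values were 7.47 to 8.31, and the triple mutant was higher than that group by 1.93 ± 0.17 (adjusted p = 1.6e-08). The growth hormone receptor gene Ghr differed from WT by 0.06 (interval -0.25 to 0.38), against -1.25 in PiZ x LIRKO. Irs2, an adaptor of the insulin receptor, stood 0.74 above WT (interval -0.07 to 1.55) with mice 169 and 170 at 4.53 and 4.20 and the other three at 5.84 to 6.18. PiZ x LIRKO livers were at 6.83 to 8.28, above every triple mutant mouse.

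Among genes activated by FOXO1 and of gluconeogenesis, 4 of 23 were higher than WT and 4 lower, with a median of 0.03, while 11 were higher and 4 lower in PiZ x LIRKO. Among all genes 12.3% were higher and 10.8% lower in the triple mutant, and 16.9% each way in PiZ x LIRKO. Calls in either direction made up 34.8% of the list in the triple mutant, against 23.1% of all genes. Near WT by the interval were 10 of the 23, against 70.8% of all genes. With the clock covariate 2 were higher and 3 lower, and with the source name as a term 6 and 3. Ppargc1a, a member of the list, stood 0.77 above WT (interval 0.10 to 1.44) and did not pass (adjusted p = 0.091). It passed at 1.48 against PiZ (Z*) (adjusted p = 0.00054) and at 2.39 with the source name as a term (adjusted p = 0.0008). PiZ x LIRKO livers had 5.86 to 6.44 of Ppargc1a, above the 3.66 to 4.93 of the triple mutant. G6pc, glucose-6-phosphatase, had 8.32, 7.51 and 8.17 in WT and 8.65, 6.82, 7.69, 8.29 and 7.61 in the triple mutant. The groups overlapped, with a difference of -0.19 (interval -0.97 to 0.59), whereas PiZ x LIRKO mice had 9.09 to 9.90. Pck1, the gene of another gluconeogenic enzyme, was higher than WT: 10.91, 10.62 and 9.84 in WT stood beside 11.52, 11.15, 11.99, 12 and 11.77 in the triple mutant, with no overlap. It rose by 1.23 ± 0.24 (adjusted p = 0.00089), and by 2.21 in PiZ x LIRKO. Pck1 stood at 11.22 to 11.86 in PiZ (Z*) and at 11.55 to 12.67 in PiZ (Z), and both ranges overlapped that of the triple mutant. Igfbp1, whose upstream bases are printed above, had 7.94, 5.22 and 5.59 in WT and 6.75, 6.64, 8.35, 8.51 and 9.87 in the triple mutant. WT mouse 1564 lay among the triple mutant mice, and the rise of 1.77 ± 0.62 passed narrowly (adjusted p = 0.041). PiZ x LIRKO livers lay at 11.63 to 12.37, above all of them, PiZ (Z) livers at 7.32 to 9.27 and PiZ (Z*) livers at 5.86 to 7.88. Klf15, a transcription factor of fasting metabolism, rose by 1.16 and Tat, tyrosine aminotransferase, by 1.42. Sesn3, a sestrin gene activated by FOXO factors, fell by 1.2 ± 0.17 (adjusted p = 3.4e-05), where PiZ x LIRKO differed from WT by 0.16 (adjusted p = 0.52). G0s2, an inhibitor of triglyceride lipase, fell by 2.53 in the triple mutant and by 4.52 in PiZ x LIRKO.

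Of 26 components of insulin signalling, Akt1 rose by 0.32 and Insr, Foxo1 and the adaptor gene Grb7 fell, Grb7 by 0.60. The other 22 did not pass, and 22 of the 26 genes were near WT, against 70.8% of all genes. In the growth hormone and IGF axis, Igfbp1 rose, and Igfals, which carries IGF1 in blood, and Cish, a STAT5 target, fell out of 17. Igfals fell by 1.17 ± 0.25 (adjusted p = 0.0021) and by 2.65 in PiZ x LIRKO. Cish fell by 2.85 ± 0.54 (adjusted p = 0.00063) and did so by 2.47 in PiZ x LIRKO and 3.70 in PiZ (Z*). Among 19 genes of glycogen and glucose handling, Gyg and Pfkfb3 rose and 3 fell, among them Pygl and Khk. Pfkfb3, which makes the main activator of glycolysis, rose by 2.23 (adjusted p = 0.00014), and Khk, which phosphorylates fructose, fell by 0.68. With the source name as a term, none of the 3 lower genes passed. Calls in either direction made up 15.4% of the insulin signalling list, 17.6% of the growth hormone list and 26.3% of the glycogen list. Among all genes the share was 23.1%, with 12.3% higher and 10.8% lower, so no list stood far above the background.

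Sex-biased genes, which in mouse liver follow the pattern of growth hormone, differed between the triple mutant and PiZ x LIRKO. Of 24 male-biased genes, 17 were lower than WT in PiZ x LIRKO and 6 in the triple mutant, with 1 higher, and the medians were -2.56 and -0.20. Of 21 female-biased genes, 10 were higher in PiZ x LIRKO and 1 in the triple mutant, beside 16.9% and 12.3% of all genes. Set directly against PiZ x LIRKO, the triple mutant was higher for 15 male-biased genes and lower for 10 female-biased genes. Of all genes, 11.5% were higher and 11.1% lower in that contrast. PiZ (Z*) had 9 male-biased genes higher than WT, beside 8.58% of all genes. Set against PiZ (Z*), the triple mutant was lower for 13 male-biased genes and higher for none, beside 11.1% of all genes lower. Of all genes, 10.8% were lower than WT in the triple mutant and 16.9% in PiZ x LIRKO. The source name as a term gave 3 male-biased genes lower than WT and none higher. The triple mutant's count rests on single libraries: without WT mouse 1564, 5 male-biased genes were higher and 5 lower with a median of 0.30, and without triple mutant mice 206 and 207, 3 were higher and 4 lower with a median of 0.33. Cyp4a12a, an androgen-responsive fatty acid hydroxylase gene, had 8.47, 6.19 and 7.70 in WT and 7.82, 8.02, 7.36, 7.23 and 6.42 in the triple mutant. All triple mutant values lay inside the WT range, and PiZ x LIRKO values were 1.76 to 3.32. The female-biased regulator gene Cux2 had 0.30 to 0.71 in WT, 0.65 to 1.25 in the triple mutant and 3.55 to 5.28 in PiZ x LIRKO.

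The triple mutant mice differed among themselves in male-biased genes. Mup3, a major urinary protein gene, had 12.44, 11.92 and 12.23 in WT and 11.70, 11.17, 9.22, 9.15 and 8.07 in the triple mutant. It fell by 2.33 ± 0.54 (adjusted p = 0.0032), with mice 169 and 170 just below WT and the others well below, and PiZ x LIRKO livers lay lower still at 6.06 to 6.86. Elovl3, a male-biased fatty acid elongase gene, had 9.67, 7.39 and 7.51 in WT and 7.64, 6.82, 4.16, 4.00 and 2.58 in the triple mutant, and fell by 3.15 ± 0.86 (adjusted p = 0.010). Mouse 169 lay within the WT range, and the adjusted p was 0.065 with the source name as a term. The steroid enzyme gene Hsd3b5 showed the same spread, from 7.96 and 7.84 in mice 169 and 170 to 3.06 in mouse 206, against 6.31 to 7.88 in WT. Its difference of -1.47 did not pass (adjusted p = 0.19). Mup20 fell by 2.66 ± 0.37 (adjusted p = 2.6e-05), but stood at -0.76 with the source name as a term (adjusted p = 0.29). Mup11 and Mup12 had 1.99 and 0.71 in WT mouse 1564 and at least 5.54 in the other WT mice, so their decreases of 4.87 and 3.86 rest on WT mice 1586 and 1601. Mup genes are near-identical copies between which reads can be split, and their values are uncertain.

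Chosen by that same contrast, the 6 genes highest above PiZ x LIRKO were Slc10a2, Hsd3b5, Mmd2, Serpina1e, Elovl3 and Cyp4a12a, by 5.06 to 5.65 log2 units. Among the 6 lowest below it were Slc4a9, Cyp2b13, Hamp2, Krt23 and Cyp2b10, by 5.21 to 6.12. Slc10a2, the apical bile acid transporter gene, had 5.59, 6.02 and 5.74 in WT and 5.97, 6.03, 5.11, 5.17 and 5.16 in the triple mutant, a difference of -0.30 (interval -1.14 to 0.54). It stood at -1.27 to 0.52 in PiZ x LIRKO, far below both. Lepr had 5.45, 3.34 and 2.69 in WT and an overlapping 3.88 to 4.58 in the triple mutant, against 9.11 to 9.30 in PiZ x LIRKO. For Lepr and Igfbp1 the WT values in the second table were lower in every mouse, and 18 of the 123 receptor-raised genes that did not pass had a WT mean more than 1 log2 unit lower there, against 1.33% of all genes tested. Their likeness to WT rests on the WT libraries of the present table.

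Some receptor-dependent genes lay beyond WT on the other side. Krt23, a keratin gene (chr11:99477974-99493137), had 3.73, 3.09 and 2.44 in WT and -0.97, -0.10, -0.29, -0.49 and 0.80 in the triple mutant. Every triple mutant value was lower, and Krt23 fell by 3.30 ± 0.33 (9.84-fold; adjusted p = 4.3e-07), while PiZ x LIRKO rose by 2.28. WT values in the second table were 3.55, 3.04 and 2.71. Serpinb1a, a protease inhibitor gene, fell by 3.12 ± 0.52 (adjusted p = 0.00019), from 3.43 to 4.05 in WT to -0.27 to 1.18. It rose by 2.02 in PiZ x LIRKO. In the second table WT mouse 1564 had 1.07 of it, near the triple mutant, and the other WT mice 3.37 and 4.10. Hamp2, a hepcidin gene, had 4.73, 5.16 and 6.03 in WT and 2.02 to 4.25 in the triple mutant, and fell by 1.96 (adjusted p = 0.0013). PiZ (Z*) livers stood at 2.33 to 3.18, and with the source name as a term the sign turned to 1.75. Gal3st1 fell by 1.48, Tbc1d30 by 0.94, and Pde6c was near the limit of 3 reads. In the other direction, Snhg11, a noncoding RNA gene, had 3.80, 3.62 and 4.29 in WT and 6.01, 6.31, 6.58, 7.49 and 5.93 in the triple mutant. It rose by 2.57 ± 0.44 (adjusted p = 0.00024), where PiZ x LIRKO differed by -1.05 (adjusted p = 0.08) and PiZ (Z*) rose by 3.60. Cspg5, Zfp982 and the lipogenic gene Thrsp, all on the list of genes lower without the receptor, were higher than WT by 1.49, 1.41 and 2.00.

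Receptor-dependent genes near WT included Igfbp2, Trpm4, Ntf3, Acmsd, Large2 and Il17rb among those raised by receptor loss. Igfbp2, another IGF binding protein gene, had 9.13, 8.56 and 9.0 in WT and 8.72, 8.51, 8.90, 8.95 and 8.93 in the triple mutant, a difference of -0.09 (interval -0.49 to 0.30), against 11.60 to 12.36 in PiZ x LIRKO. PiZ (Z*) livers were lower than WT by 1.08, so that with the source name as a term the difference was 0.82. Among genes lowered by receptor loss, Fam25c, Cyp4a12a, Crygn, Med12l, Ncam2 and Aldh1a7 were near WT. Fam25c, for example, differed by 0.03 (interval -0.74 to 0.80), against -4.93 in PiZ x LIRKO. Still higher than WT were the lipoprotein lipase gene Lpl, by 1.32 against 3.22 in PiZ x LIRKO, the scavenger receptor gene Marco by 2.37, Tuba8 by 2.22 and the guanylate cyclase gene Gucy2c by 2.26, each with an adjusted p under 0.01. Spdef passed at levels near the limit of 3 reads. Still lower were Myom2, by 2.89 against 5.81 in PiZ x LIRKO, Mup3, Elovl3, Pitx3 and Trhde.

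Cholesterol synthesis, which insulin raises through SREBP2, had almost no gene that passed against WT. Of 25 genes, 1 fell, Ebp by 0.36 (adjusted p = 0.045), and none rose, with a median of 0.38, beside 10.8% lower and 12.3% higher among all genes. Near WT by the interval were 13 of the 25, against 70.8% of all genes, so the few calls do not show that the other genes were close to WT. Without WT mouse 1601, 4 rose. In PiZ x LIRKO 10 fell, beside 16.9% of all genes. Directly against that group 17 were higher in the triple mutant and none lower, beside 11.5% higher and 11.1% lower among all genes. The squalene epoxidase gene Sqle had 5.27, 6.16 and 6.96 in WT and 6.97, 6.58, 6.87, 6.35 and 6.39 in the triple mutant, against 1.67 to 5.70 in PiZ x LIRKO. Its difference from WT was 0.50 (interval -0.71 to 1.71). Sc5d, the gene of a late desaturase of the pathway, differed by 0.46 and did not pass. With total read scaling 3 rose and none fell. Among 23 genes of fatty acid and triglyceride synthesis, Thrsp and Lpin1 rose and Scd1, Fads2 and Angptl8 fell. Scd1, the stearoyl desaturase gene, had 12.91, 10.44 and 12.52 in WT and 10.05, 9.59, 9.80, 10.09 and 10.46 in the triple mutant. Mouse 207 was level with WT mouse 1586, and the fall of 1.96 ± 0.64 passed (adjusted p = 0.029), but not with the source name as a term (adjusted p = 0.60).

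Fatty acid oxidation genes were often lower. Of 29 PPARA targets and oxidation genes, 14 fell and none rose, with a median of -0.48, against 10.8% of all genes lower. In PiZ x LIRKO 8 fell and 2 rose, beside 16.9% of all genes each way. Plin2, which coats lipid droplets, had 8.78, 9.23 and 9.96 in WT and 8.36, 7.86, 8.26, 8.11 and 8.44 in the triple mutant. All 5 were below WT, and the fall was 1.12 ± 0.25 (adjusted p = 0.0023). The acyl-CoA thioesterase gene Acot1 fell by 1.82 and the transcription factor gene Creb3l3 by 0.53. Vnn1 had 2.19, 5.62 and 7.38 in WT and -1.14 to 2.28 in the triple mutant and fell by 4.66, but PiZ (Z*) livers had -0.71 to 2.04, and with the source name as a term the difference was -0.62 (adjusted p = 0.7). With that term 4 genes of the list were lower, without WT mouse 1601 it was 4 as well, without triple mutant mice 206 and 207 it was 8, and with total read scaling 7 were lower and 1 higher. PiZ (Z*) against the same WT mice also had 8 lower and none higher, beside 7.47% lower and 8.58% higher among all genes.

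Other hepatocyte secretory and catabolic genes fell in part, beside 10.8% lower and 12.3% higher among all genes. Of 16 apolipoprotein and lipoprotein assembly genes 6 fell, Apoa1, Apoa4, Apoc1, Apoc2, Apoc3 and Lipc, and none rose, with a median of -0.35. Apoa4, an apolipoprotein gene of triglyceride-rich particles, had 6.79, 6.75 and 7.30 in WT and 4.55, 4.38, 4.91, 4.42 and 4.88 in the triple mutant and fell by 2.32 ± 0.29 (adjusted p = 8.6e-06). With total read scaling 2 of the 16 were lower, with the clock covariate 1, and without mice 206 and 207 it was 3. Of 17 urea cycle and periportal genes, Slc7a2 rose and 7 fell, among them Otc by 0.68, Hal by 1.35 and Hsd17b13 by 1.29; with the source name as a term 3 were lower and 2 higher. Without WT mouse 1564, 3 were lower and 3 higher, and without triple mutant mouse 207, 4 were lower. Of 23 bile acid genes, Abcc2 rose and Cyp8b1, Abcb4, Nr0b2 and Slc27a5 fell, Cyp8b1, which directs synthesis to cholic acid, by 2.38 (adjusted p = 0.0024). Cyp7a1, the rate-limiting enzyme gene, had 4.70, 4.71 and 7.08 in WT and 8.12, 7.77, 7.74, 7.26 and 5.57 in the triple mutant, a difference of 1.80 that did not pass (adjusted p = 0.082). Of 16 pericentral genes, Slc13a3 rose by 1.5 and none fell. Of 24 acute phase genes 5 rose, Saa2, Lcn2, Mt1, Mt2 and Il6ra, and Fga and Fgg fell, with a median of 0.46 and beside 12.3% higher among all genes. The source name as a term gave 1 higher and a median of -0.10, and with the clock covariate none passed. Without WT mouse 1564 or triple mutant mouse 206, 3 were higher, and without WT mouse 1586 or triple mutant mouse 207, 2. Of 14 mouse serpin genes of the Serpina family, Serpina3f rose and Serpina12 fell. Of 16 CAR and PXR genes, Por, Gstm3 and Alas1 rose and Cyp2c37 fell, where PiZ x LIRKO had 8 higher, beside 16.9% of all genes. Calls in either direction made up 21.7% of the bile acid list and 25% of the CAR and PXR list. Among all genes the share was 23.1%, so both were near the background. The serpin list, at 14.3%, and the pericentral list, at 6.25%, were below it.

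Genes that answer protein stress differed by list. Of 36 ER chaperone and unfolded protein response genes, 6 rose (Pdia6, Dnajc10, Herpud1, Derl1, Eif2ak3 and Selenos) and Xbp1 fell, with a median of 0.18. The 6 higher genes stand beside 12.3% of all genes, a share near their own. PiZ (Z*) against the same WT mice had 12 higher and none lower, beside 8.58% higher and 7.47% lower among all genes. PiZ x LIRKO had 1 higher and 4 lower, beside 16.9% each way. Hspa5, the main ER chaperone gene, had 10.22, 11.37 and 9.58 in WT and 10.02, 10.74, 10.58, 10.63 and 10.27 in the triple mutant, with a difference of 0.05 (interval -0.46 to 0.57). Herpud1, of ER-associated degradation, rose by 1.13 ± 0.27 (adjusted p = 0.0039). With total read scaling 13 were higher, with the clock covariate 1, without mice 206 and 207 it was 3, without WT mouse 1586 it was 12 and without WT mouse 1601 it was 2. Of 17 ATF4 and CHOP targets, 6 rose and none fell, with a median of 1.02. With the clock covariate 3 were higher, and without triple mutant mouse 169 it was 10. The asparagine synthetase gene Asns had 3.30, 0.71 and -0.73 in WT and 6.23, 6.09, 5.18, 5.64 and 4.86 in the triple mutant, and rose by 4.51 ± 0.60 (22.7-fold; adjusted p = 1.6e-05). PiZ (Z*) livers rose by 4.08 against the same WT mice, and with the source name as a term the difference was 2.52 (adjusted p = 0.03). Psat1, of serine synthesis, rose by 3.58, Cebpb by 1.69 and Ddit3, which encodes CHOP, by 1.07 (adjusted p = 0.034). Ddit3 did not pass with the source name as a term (adjusted p = 0.21) or with the clock covariate (adjusted p = 0.054), nor Cebpb with the clock covariate (adjusted p = 0.19), and PiZ (Z*) against the same WT mice rose by 1.30 for Ddit3 and 1.63 for Cebpb. Of 23 NRF2 targets and glutathione genes, 10 rose and none fell, with a median of 0.50, beside 12.3% higher among all genes. The count was 6 with the source name as a term and 5 with the clock covariate. Nqo1, a quinone reductase gene, had 2.61, 2.93 and 3.23 in WT and 3.61, 3.89, 4.73, 4.64 and 4.27 in the triple mutant, with no overlap, and rose by 1.31 ± 0.31 (adjusted p = 0.0037). Srxn1 and Gsr rose by 1.03 and 0.59.

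**Figure D4:**
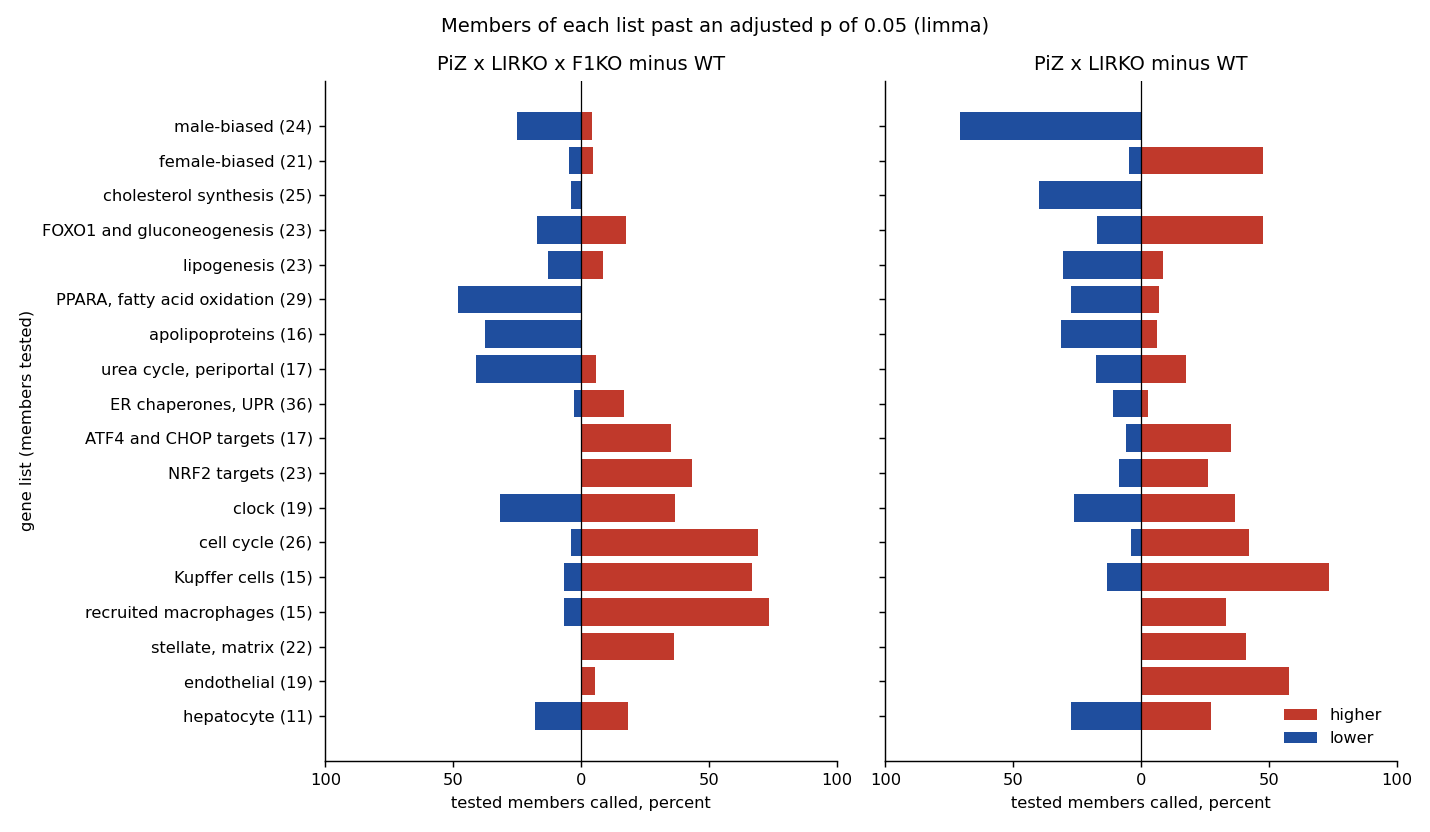
Share of tested members of 18 gene lists (y axis, members tested in brackets) that were higher (right) or lower (left) than WT in the triple mutant (left panel) and in PiZ x LIRKO (right panel), in percent (x axis). Male-biased genes were lower for 6 of 24 in the triple mutant and 17 of 24 in PiZ x LIRKO, and Kupffer cell markers were higher for 10 and 11 of 15.

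Macrophage genes were higher than in WT. Of 15 Kupffer cell markers 10 rose and Id3 fell, with a median of 0.76, against 12.3% of all genes higher. PiZ x LIRKO had 11 higher and 2 lower, beside 16.9% of all genes each way. Clec4f, a receptor found on Kupffer cells, had 7.01, 6.83 and 6.81 in WT and 7.80, 7.59, 7.49, 8.05 and 7.83 in the triple mutant. All 5 lay above WT, and the rise was 0.86 ± 0.12 (adjusted p = 2.5e-05). Cd5l rose by 1.27, Timd4 by 1.43, Vsig4 by 1.09, Folr2 by 0.84 and C1qa by 0.86. PiZ (Z*) livers differed from WT by -0.05 for Clec4f, 0.05 for Cd5l and -0.02 for Vsig4, none of which passed. With the source name as a term 11 of the list were higher. The summed level of the list was 9.74 to 10.23 log2 CPM in WT and 10.23 to 10.94 in the triple mutant. Among 15 markers of recruited and lipid-associated macrophages 11 rose and Fabp5 fell, with a median of 1.45, against 5 higher in PiZ x LIRKO. Mmp12, a macrophage elastase gene, had 8, 4 and 19 reads in WT and 23, 87, 956, 865 and 2066 in triple mutant mice 169, 170, 201, 206 and 207. It rose by 5.01 ± 0.99 log2 units (adjusted p = 0.00094), and mice 201, 206 and 207 were far above mice 169 and 170. Lgals3 had 2.48, 2.24 and 2.75 in WT and 3.09, 3.71, 5.08, 5.04 and 5.48, with the same mice high, and rose by 1.99 ± 0.35 (adjusted p = 0.00033). Cd68 rose by 1.30 and Itgam by 1.59. The summed level of these markers was 7.13 to 7.37 in WT and 7.54 to 9.11 in the triple mutant. Without mice 206 and 207, 6 of the 15 were higher. The count was 7 with the source name as a term, with the clock covariate, and when WT mouse 1586 was left out.

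Cell cycle genes were also higher. Of 26 tested, 18 rose and E2f8 fell, with a median of 1.46, and PiZ x LIRKO had 11 higher. Among all genes 12.3% were higher in the triple mutant and 16.9% in PiZ x LIRKO. Mki67, a marker of cycling cells, had 1.43, -0.31 and 1.39 in WT and 2.22, 2.82, 3.44, 4.30 and 4.26 in the triple mutant. All 5 were above WT, and the rise was 2.57 ± 0.46 (adjusted p = 0.00034). The cyclin D1 gene Ccnd1 had 5.24, 5.59 and 5.76 in WT and 6.38, 7.13, 7.78, 7.41 and 8.03 in the triple mutant, and rose by 1.82 ± 0.34 (adjusted p = 0.00053). PiZ x LIRKO livers stood at 7.25 to 7.78 for Ccnd1, and PiZ (Z*) at 4.20 to 6.01. Top2a rose by 2.23, Ccne1 by 2.12, Mcm5 by 2.07 and Mcm3 by 1.31. With the source name as a term 10 were higher and 1 lower, without mice 206 and 207 it was 11 and 1, and with the clock covariate 7 and none.

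Other cell types gave smaller counts. Beside them, 12.3% of all genes were higher and 10.8% lower in the triple mutant, and 16.9% each way in PiZ x LIRKO. The summed marker level of stellate cells was 9.01 to 9.25 in WT and 9.34 to 10.12 in the triple mutant, that of lymphocytes 4.51 to 4.89 and 5.37 to 6.33, and that of endothelium 9.46 to 9.62 and 9.52 to 9.75. The part of these cells in the results on other genes was not tested. Of 22 stellate cell and matrix markers 8 rose and none fell, with a median of 0.54, led by Lum at 1.72 ± 0.23 (adjusted p = 2.0e-05) and Col3a1 at 1.38. With total read scaling or without triple mutant mouse 170, 14 were higher. It was 4 with the source name as a term and without mice 206 and 207, and 5 with the clock covariate and when either WT mouse 1586 or triple mutant mouse 207 was left out. Of 14 lymphocyte markers Gzma, Gzmb, Ighm and Ptprc rose, the last, a marker of all leukocytes, by 1.06 (adjusted p = 0.0013). Without WT mouse 1601 or triple mutant mouse 207, 2 of the 14 were higher. Of 3 neutrophil markers tested S100a8 rose. Of 19 endothelial markers Fcgr2b alone rose, by 0.40, where PiZ x LIRKO had 11 higher, and the vascular gene Pecam1 differed by 0.07 (interval -0.24 to 0.38). Lyve1, of sinusoidal endothelium, differed by -1.09 (interval -1.92 to -0.27) and did not pass. Of 9 bile duct markers Epcam rose and Sox9 and Ambp fell, and of 17 fetal and tumour markers Afp, Golm1 and Epcam rose and Sox9 fell. Sox9 fell by 2.15 (adjusted p = 0.0075). Of 23 interferon and antigen presentation genes, Irf7, Oas1a, H2-K1 and H2-D1 rose and Stat2 fell. Without WT mouse 1564, WT mouse 1586 or triple mutant mouse 206, 2 rose, and with the clock covariate none. Calls in either direction made up 21.7% of the interferon list and 23.5% of the fetal and tumour list. Among all genes the share was 23.1%, so both lists were at the background. Of 5 erythroid genes, Hba-a1 and Hbb-bs rose and Hba-a2 and Alas2 fell. None of 13 pancreatic markers passed in either direction, at a median of -2.65. Of 10 fat and muscle markers none met the level for testing. Hepatocyte markers were present throughout: Ahsg and Tat rose and Ttr and Apoa1 fell out of 11, albumin (Alb) stood at 16.28 to 16.56 in WT and 15.33 to 16.02 in the triple mutant, and the transcription factor gene Hnf4a differed by -0.12 (interval -0.45 to 0.22).

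The largest single changes were mixed in kind. The 12 largest increases among non-overlapping genes were the human transgene, by 7.79 (221-fold), and Mmp12, Asns, Per1, Mt2, Ttc39a, Usp2, Aph1c, Mki67, Snhg11, Lpin1 and Maff, from 5.01 to 2.52. The 11 largest decreases were Mme, Rps2, Phlda1, Myom2, Cish, Celsr1, Mup20, Aqp8, C4a, G0s2 and Slc25a30, from -4.11 to -2.51. Phlda1, the gene of a small regulator of signalling, had 7.03, 7.39 and 6.6 in WT and 4.54, 5.05, 3.47, 2.99 and 3.56 in the triple mutant, and Aqp8, a water channel gene, 6.17, 5.53 and 6.54 against 2.89 to 3.94. Both kept their decrease with the source name as a term, at -3.74 and -2.47. Mme, which encodes the membrane protease neprilysin, had 4.62, 5.35 and 5.62 in WT and 1.93, 2.90, 0.55, -0.57 and 0.65 in the triple mutant. PiZ (Z*) livers, of the same source name, had 0.68 to 2.61, against 4.98 to 5.76 in PiZ (Z), so that with the source name as a term the difference was -0.03. Aph1c, of the gamma-secretase complex, rose by 3.09 and stood at -0.95 with that term. Rps2, a ribosomal protein gene with many near-identical copies, had 6.36 to 6.79 in WT, 1.56 to 1.76 in triple mutant mice 169, 170 and 201, and 5.72 and 5.46 in mice 206 and 207. Its mean therefore describes no single mouse well.

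**Figure D5:**
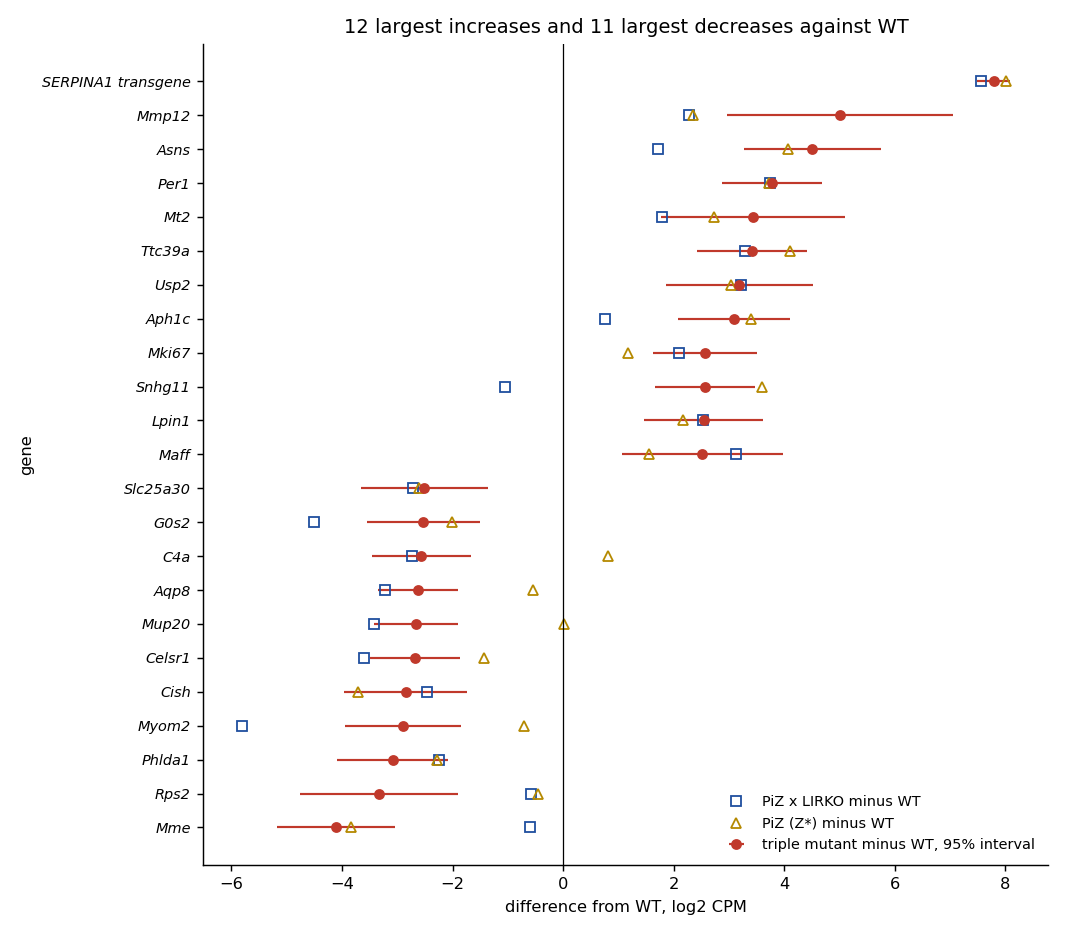
Difference from WT in log2 CPM (x axis) for the 12 largest increases and 11 largest decreases (y axis) in the triple mutant (filled points, bars for 95% confidence intervals), with PiZ x LIRKO (squares) and PiZ (Z*) (triangles) against the same WT mice. Mme and Aph1c lie at -4.11 and 3.09 in the triple mutant with the PiZ (Z*) value beside them.

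Clock genes differed in both directions, beside 12.3% higher and 10.8% lower among all genes. Of 19, 7 rose (Per1, Per3, Nr1d2, Dbp, Tef, Ciart and Bhlhe40) and 6 fell (among them Arntl, Npas2, Clock, Cry1 and Nfil3). Without WT mouse 1564, 3 were higher and 2 lower, without WT mouse 1586, 4 and 4, and with the source name as a term, or without triple mutant mice 206 and 207, 3 were higher and 3 lower. Per1, a repressor of the clock, had 1.69, 2.97 and 2.94 in WT and 5.30, 5.83, 6.52, 6.65 and 7.28 in the triple mutant, and rose by 3.78 ± 0.44 (13.7-fold; adjusted p = 3.0e-06). PiZ x LIRKO rose by 3.75 and PiZ (Z*) by 3.72 against the same WT mice. Directly against PiZ x LIRKO none of the 19 passed, beside 22.5% of all genes. The labels give no hour of tissue collection, so hour and genotype cannot be told apart.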

How the data were processed

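Liver RNA of 36 mice in 10 groups was sequenced as 43 libraries, and the 26 libraries of the table that holds the triple mutant were fitted. The authors deposited log2 CPM values per gene, normalised within that table. STAR 2.0.4b, Subread, featureCounts 1.4.5 and GRCm38 are named in the submitters' processing notes, which give no order, settings, strand or annotation. The deposited values were found to be whole reads plus 0.5, scaled by an effective library size (100% whole within 0.01 reads), and 3 reads correspond to -2.86 to -1.90 log2 CPM. Of 14737 lines, 115 repeats were dropped, 21 symbols had been turned into dates, and 14594 of 14622 identifiers were in GENCODE M21. 1 column with no label was not used.

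Differences were tested with limma 3.58.1 (R 4.3.3; trended moderated variances, two-sided, 20 residual degrees of freedom, 6 groups), with Benjamini-Hochberg adjustment over 13596 genes and a threshold of 0.05. Errors after ± are standard errors unless stated. Beyond sex, age, background, genotype and source name, the labels give only the numbers of the mice, so p-values measure the spread between these libraries. The method was tested on simulated data.

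The named genes are the 12 largest changes each way (non-overlapping, mean of at least 2 log2 CPM), the 6 largest each way against PiZ x LIRKO, up to 6 per class of receptor-dependent genes, and up to 4 or 6 members per list. G6pc, Irs2, Igf1, Ghr, Lepr, Cux2, Scd1, Hspa5, Cyp7a1, Sqle, Nqo1, Ddit3, Alb, Hnf4a, Pecam1 and other members given by name or as passing fall outside this rule and were picked with their values in view. Some genes that the rule names are not reported here. The members and lists were chosen with earlier results of these data known. Alternatives were source name as a term, a clock covariate, other filters and scalings, voom on recovered reads, and left-out libraries.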

Additional observations from a re-analysis of the deposited data

Results flagged for a closer look

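Among 190 named genes, in 6 cases 1 of the 5 triple mutant livers stood far from the other 4 by Dixon's test of the gap. Chance does this for about 1 in 20 groups, so 6 of 190 is no more than chance gives. Mouse 169 had the highest Insr, at 5.44 log2 CPM against 5.18 in the next mouse, and still lay below every WT mouse. Mouse 169 also had the lowest Psat1, at 0.72 against 2.81, and the lowest Mcm5, at 1.93 against 3.55. Mouse 201 had the lowest Gzmb, at -1.43 against 0.33. Mouse 206 had the highest Cela1, a pancreatic elastase gene, at 7.42 against 4.29; its Prss2 was also the highest of the 5. Mouse 206 had the highest Crygn as well, at 2.01 against 1.08.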

How the results depend on the processing

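No paired analysis was possible because the mice of the 2 groups carry different numbers. The 3140 genes passing became 1157 with the clock covariate, 1715 without triple mutant mice 206 and 207 (chosen after seeing the data), 569 without every Prss2 library, which leaves WT mouse 1564 alone, and 2038 (without WT mouse 1586) to 3360 when 1 mouse was left out. Receptor-raised genes still higher, 33 at first, were 19, 21 and 10 under the first 3 of these and 24 to 37 with 1 mouse left out. Receptor-lowered genes still lower, 54 at first, were 32 with the clock covariate, 16 without every Prss2 library and 42 to 56 with 1 mouse left out. With the lists taken from PiZ x LIRKO against PiZ (Z) alone the counts were 176 of 552 (31.9%) and 125 of 484 (25.8%), and from the second table alone 58 of 356 (16.3%) and 74 of 519 (14.3%), beside 18.6% and 23.6% at first. Without every Prss2 library 4 Kupffer cell, 3 cell cycle and no recruited macrophage markers were higher, and no PPARA target was lower. Genes near WT were 9010 to 9610 with 1 mouse left out and 4707 within 0.5 log2 units. The median distance was 0.324 as a median absolute difference. The sign turned with the source name as a term for Aph1c (-0.95), Hamp2 (1.75), Cyp2b10 (2.50), Hba-a2 (0.28) and Igfbp2 (0.82), without every Prss2 library for Igfbp1 (-0.70) and Mup12 (0.42), and with the clock covariate for Npas2 (0.23). The cause was not tested. Of 190 named results, 138 kept direction and side of the threshold with the source name as a term and 121 with the clock covariate. The number was 155 without triple mutant mice 206 and 207, 181 with voom and 160 when the 2 groups were fitted alone.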
